A study of Mus musculus with 30 samples.

Results

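The genes described here are the mouse genes named Zfp with a number, without Zfp36, whose mean reached at least 5 CPM (fragment counts scaled to a common library size, with TMM factors) over 30 RNA-seq libraries of J774A.1 cells, a macrophage-like mouse tumour line. The name rule found 373 genes among the 54146 in the table, and 193 of them reached that level, while 29 were at 0 in every library. At the edge, Zfp974 (4.94 CPM) and Zfp951 (4.96 CPM) lay just outside and Zfp846 (5.14 CPM) and Zfp810 (5.26 CPM) just inside. The libraries came from 5 clones. WT1, WT2 and WT3 were expanded from single J774A.1 cells that were not edited. KO1 and KO2 were isolated after Cas9 electroporation and carry a homozygous deletion of B2_Mm2.Dicer1, a B2_Mm2 transposon copy in the first intron of Dicer1. Cells of each clone were either left untreated (UT) or exposed during 4 h to 100 ng/mL mouse IFNG, and each combination is represented by 3 libraries. The KO genotype is thus represented by 2 clones, and p-values computed over libraries measure the spread among libraries, which are not independent clones.

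Most Zfp genes encode C2H2 zinc finger proteins, in which each finger is folded around a zinc ion and arrays of fingers read DNA sequence. Many of them also carry a KRAB domain, which recruits the corepressor TRIM28 and the histone methyltransferase SETDB1 and is known for silencing transposable elements and for protecting imprints. KRAB zinc finger genes multiply by tandem duplication and therefore lie in clusters. The symbol marks the finger alone, so the same set holds DNA-binding factors, RNA-binding proteins, ubiquitin ligases and ribosome factors.

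The libraries held 15566122 to 37992642 counted fragments (median 23682133.5), and the 193 Zfp genes together took 5077 to 5683 CPM of a library. All 10 macrophage markers checked were expressed, at 4957 to 7697 CPM in sum. The lists of epithelial, T cell and B cell markers held no gene that reached 1 CPM on average, and those of fibroblasts and of endothelium held 1 each. The 7 testable genes of a list of 8 known IFNG targets rose in pooled WT, among them the chemokine gene Cxcl9 with a log2 fold change (log2FC) of 12.68. Dicer1, whose exons the deletion leaves in place, was lower in untreated KO1 than in WT (log2FC -0.74 ± 0.08 (SE), adjusted p = 4.13e-05). It did not pass the threshold in untreated KO2 (log2FC -0.18 ± 0.08, adjusted p = 0.179). The element itself is not counted in a table of exons.

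The Zfp genes were mostly weakly expressed. Their mean levels ran from 5.14 to 424 CPM with a median of 14.3 CPM, against a median of 40.8 CPM for all 10151 genes that reached the same minimum. Only 7 were above 100 CPM and 54 were below 10 CPM. Levels of different genes were compared per kb of summed exon length, and on that scale the order began with Zfp106 (40.7 CPM per kb), Zfp207 (35.8), Zfp91 (35.7), Zfp706 (29.99), Zfp710 (18), Zfp703 (17.8), Zfp598 (16.4) and Zfp146 (15.7), against a median of 3.15 CPM per kb over the 193 genes. Several of these do not act mainly by binding DNA. Zfp106 binds RNA, Zfp207 acts at spindle microtubules, Zfp91 is a ubiquitin ligase, and Zfp598 is the ubiquitin ligase that marks collided ribosomes. Each varied between clones. Untreated Zfp106 was at 300 ± 20.03 CPM (SD, n = 3) in WT1, 424 ± 11.9 CPM in WT2, 401 ± 9.01 CPM in WT3, 441 ± 4.17 CPM in KO1 and 446 ± 12.8 CPM in KO2, so that WT1 stood below the other 4 clones. Untreated Zfp91 was likewise lowest in WT1, at 325 ± 5.95 CPM against clone means of 357 to 384 CPM elsewhere. Zfp703, a transcriptional corepressor of the NET family, was at 63.5 ± 1.43 CPM in WT1, 85.0 ± 2.69 CPM in WT3 and 50.2 ± 3.73 CPM in KO1.

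Open reading frames read from annotated transcripts placed 77 of the 193 genes in a KRAB-like class, with a stretch resembling the KRAB A box before the first finger, and 116 outside it. The count of C2H2 fingers had a median of 10 and reached 36. It was 12 at the median in the KRAB-like class and 8 in the rest, and 4 genes (Zfp330, Zfp703, Zfp839 and Zfp503) held none of the standard spacing. The KRAB-like genes stood at a median of 2.67 CPM per kb and the others at 4.18 CPM per kb. Genes lying within 1 Mb of each other formed 19 clusters of at least 3 genes, which took 102 of the 193 genes, 65 of the 77 KRAB-like ones and 37 of the 116 others. Chromosome 7 held 42 Zfp genes, 5.73% of its genes with at least 5 CPM, and chromosome 17 held 27, or 5.04%. The longest run was that of 15 genes from Zfp160 to Zfp945 (chr17:21008903-22867134, mm10), of which 12 were KRAB-like. Only fragments that aligned uniquely were counted and genes in such runs are near copies of each other, so the levels of clustered members are less certain than those of single genes, and 36 of the 193 overlap another gene on their own strand, where a fragment was counted for both. Zfp91, Zfp710, Zfp961, Zfp777, Zfp318, Zfp276, Zfp414 and Zfp935 are among these 36.

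IFNG for 4 h raised some Zfp genes and lowered others by mostly small amounts. In pooled WT (9 treated against 9 untreated libraries), 63 of the 193 genes passed an adjusted p of 0.05, 27 higher and 36 lower, which is 32.6% of them. Over all 13423 genes tested, 28.6% passed (14.8% higher and 13.9% lower). Among the Zfp genes 14% passed as higher and 18.7% as lower. The total and the higher share were thus near the background. The lower share was above it, a difference that was not tested. Of those past the threshold the median size was 0.31 on the log2 scale, and only 4 changed by more than 1. The median log2FC of the 193 genes was -0.03, against 0.00 (-0.00276) for all genes. The tests were edgeR quasi-likelihood tests adjusted over all genes. With clone as a block, 104 of the 193 passed (53.9%), 38 higher and 66 lower, against 45.5% of all genes in that fit (21% higher and 24.6% lower).

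The largest rise was that of Zfp945, the last gene of the Zfp160 cluster. In the 9 untreated WT libraries it was at 10.6 CPM at the lowest, 12.9 at the median and 13.6 at the highest, and in the 9 treated ones at 26.5, 34.9 and 51.4 CPM. The ranges did not overlap, and the 2 highest treated values were those of WT3 libraries. The log2FC was 1.53 ± 0.11 (SE), a 2.89-fold rise (adjusted p = 1.16e-09). Zfp281, a C2H2 regulator known from the exit of embryonic stem cells from pluripotency, moved from 40.3, 42.4 and 45.02 CPM (lowest, median, highest) to 84.04, 96.9 and 110 CPM. Its values were tight in both states, with a log2FC of 1.19 ± 0.04 (adjusted p = 2.69e-14). Zfp160, at the other end of the Zfp945 cluster, went from 13.9 to 15.8 CPM without IFNG to 21.9 to 28.3 CPM with it (log2FC 0.79 ± 0.05, adjusted p = 1.25e-10). In that cluster 4 of the 15 genes passed the threshold, where 28.6% of all genes did. Besides Zfp945 and Zfp160 these were Zfp52 (log2FC -0.42) and Zfp53 (log2FC -0.24), both lower.

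The remaining 5 named risers were smaller in size. Zfp429, which belongs to a KRAB cluster on chromosome 13, rose from 4.94 to 7.20 CPM over untreated libraries to 8.40 to 11.1 CPM in treated ones (log2FC 0.77 ± 0.08). It was the only one of the 7 genes of its cluster to pass, where 28.6% of all genes did. Zfp961 rose with a log2FC of 0.69 ± 0.07, Zfp287 with 0.57 ± 0.09, Zfp382 with 0.54 ± 0.07 and Zfp141 with 0.53 ± 0.10. All 5 had adjusted p of 0.00028 or smaller in the edgeR test.

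**Figure D1:**
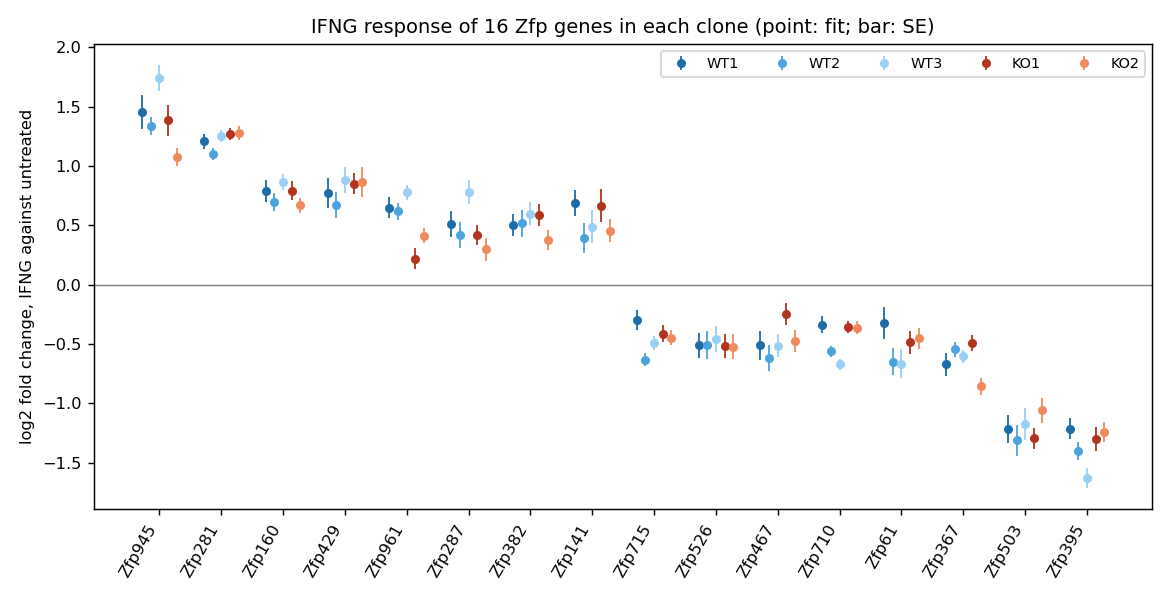
The y axis gives the log2 fold change of IFNG-treated against untreated libraries, and the x axis the 16 Zfp genes named for pooled WT, 8 higher and 8 lower. Each point is 1 clone (3 treated against 3 untreated libraries) and the bar is its SE. The genes were named for having the same sign in the 3 WT clones, and the KO1 and KO2 points also keep it. The KO1 point of Zfp961 (0.22) lies below the points of the 3 WT clones (0.62 to 0.78).

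Among the genes that fell, Zfp395 and Zfp503 moved most. Zfp395, a factor related to the glucose transporter 4 enhancer binding proteins, was at 23.6, 27.3 and 44.2 CPM (lowest, median, highest) in untreated WT and at 8.28, 9.34 and 20.8 CPM after IFNG. The wide ranges came from WT1, whose libraries stood at 40.5 to 44.2 CPM before treatment and at 16.5 to 20.8 CPM after it. Within clones the fall was sharp (log2FC -1.21 ± 0.09 in WT1, -1.40 ± 0.08 in WT2 and -1.63 ± 0.08 in WT3), and the pooled log2FC was -1.37 ± 0.21 (adjusted p = 2.52e-05). Zfp503, a developmental corepressor of the same NET family as Zfp703, went from 6.26 to 11.5 CPM down to 2.73 to 5.07 CPM (log2FC -1.23 ± 0.14, adjusted p = 1.02e-06). Zfp703 itself fell by less (log2FC -0.30 ± 0.08, adjusted p = 0.00559). Zfp367 (log2FC -0.60 ± 0.15), Zfp61 (-0.55 ± 0.08), Zfp710 (-0.54 ± 0.09), Zfp467 (-0.54 ± 0.12), Zfp526 (-0.49 ± 0.07) and Zfp715 (-0.47 ± 0.06) completed the named list. Zfp61 and Zfp526 share a cluster on chromosome 7 in which all 5 genes had a negative log2FC and 3 passed. The 5 genes of the Zfp41 to Zfp7 cluster on chromosome 15 were likewise all negative, with 2 that passed. Over all genes 13.9% passed as lower. These 2 clusters were picked from the 13 with 4 or more genes, and no cluster was tested. No other cluster of 4 or more genes had the same sign throughout.

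The 26 genes that passed with the same sign in all 5 clones, each tested alone, were 11 higher and 15 lower. Over all genes testable in every clone, 16.5% met that rule (9.47% higher and 7.04% lower). Besides the genes above they included Zfp800 (log2FC in pooled WT 0.51), Zfp513 (0.53), Zfp952 (0.48) and Zfp639 (0.32) on the higher side and Zfp652 (-0.38), Zfp64 (-0.33), Zfp687 (-0.29) and the ribosome biogenesis factor Zfp622 (-0.23) on the lower. A further 85 of the 193 passed in no clone. That count was not made over all genes, so it cannot be called particular to the Zfp genes. In single clones the genes past the threshold numbered 48 in WT1 (25 higher, 23 lower, background 21.2% with 11.8% higher and 9.47% lower) and 66 in WT2 (23 higher, 43 lower, background 34.5% with 17.4% higher and 17% lower). They numbered 61 in WT3 (31 higher, 30 lower, background 36.1% with 18.6% higher and 17.5% lower), 53 of 192 tested in KO1 (23 higher, 30 lower, background 29.4% with 16.2% higher and 13.2% lower) and 50 in KO2 (19 higher, 31 lower, background 27.1% with 13.9% higher and 13.2% lower). As shares of the Zfp genes tested these were 24.9% to 34.2%.

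By class, 22 of the 77 KRAB-like genes passed in pooled WT (12 higher, 10 lower) and 41 of the 116 others (15 higher, 26 lower), where 28.6% of all genes passed, 14.8% as higher and 13.9% as lower. Of 11 members known for RNA, ribosome, ubiquitin or spindle roles, Zfp330 rose (log2FC 0.21 ± 0.04, adjusted p = 0.000632) and Zfp622 fell (-0.23 ± 0.08, adjusted p = 0.0369). The abundant Zfp207, Zfp91, Zfp706 and Zfp598 had log2FC of 0.06, -0.06, 0.02 and 0.08, none past the threshold. Of 7 members known from retroelement silencing or imprinting, 3 rose, namely Zfp429, Zfp141 and Zfp445 (0.16 ± 0.05), and none fell, against 14.8% higher and 13.9% lower over all genes. Zfp445 acts with Zfp57 at imprinted regions. Zfp57 itself was not among the 193.

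Genes of the machinery that KRAB proteins recruit passed about as often as all genes. Of 33 testable genes of a list of corepressor and heterochromatin genes, 10 passed in pooled WT (30.3%, background 28.6%), 3 higher and 7 lower, with a median log2FC of -0.02. Setdb1 fell (log2FC -0.20), as did Trim24 (-0.30), Trim33 (-0.18), the DNA methyltransferase Dnmt3a (-0.46), Uhrf1 (-0.24), Mphosph8 (-0.22) and Mta2 (-0.09). Atf7ip (0.21) and Fam208a (0.24) rose, as did the histone H3.3 chaperone Daxx, which changed most of the list, from a mean of 31.7 CPM to 87.4 CPM in WT (log2FC 1.47).

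GAS elements are short sites known from promoters of IFNG-induced genes, so the promoter window of RefSeq (250 bases before to 50 bases after the start, GRCm38.p6) was searched for the letters TTCNNNGAA, which read the same on both strands. The window was found for 160 of the 193 genes, and 24 of these (15%) held a match, against 9.55% of all 27025 windows. A match was present in 6 of 24 genes that rose in pooled WT, in 2 of 30 that fell and in 16 of 106 that did not pass. Zfp945 and Zfp429 were among the 6, and their windows are shown with the match in capitals, since these were the largest and the fourth largest rise.
Zfp945, chr17:22867085-22867384, minus strand: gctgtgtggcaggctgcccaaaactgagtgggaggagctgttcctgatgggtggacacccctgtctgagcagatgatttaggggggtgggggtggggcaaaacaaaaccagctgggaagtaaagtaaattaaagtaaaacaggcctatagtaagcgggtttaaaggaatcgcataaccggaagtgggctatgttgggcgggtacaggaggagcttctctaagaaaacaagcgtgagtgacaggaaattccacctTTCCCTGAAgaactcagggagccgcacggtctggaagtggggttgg
Zfp429, chr13:67399718-67400017, minus strand: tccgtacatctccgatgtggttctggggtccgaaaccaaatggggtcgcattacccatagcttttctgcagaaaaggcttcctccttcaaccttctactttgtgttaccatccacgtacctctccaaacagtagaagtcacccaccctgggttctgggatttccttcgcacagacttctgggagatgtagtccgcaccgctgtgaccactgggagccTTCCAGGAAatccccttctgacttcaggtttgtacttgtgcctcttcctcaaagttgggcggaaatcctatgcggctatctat
The windows of Zfp281, Zfp160 and Zfp961 held no match. A match gives only the letters and no evidence of binding, and a window without one says nothing of more distant sites.

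The response was also measured in KO cells (6 treated against 6 untreated libraries), which share no library with the WT comparison. There 64 of the 193 Zfp genes passed, 24 higher (12.4%) and 40 lower (20.7%), against a background of 30.7% (15.8% higher and 14.8% lower). Of the 193, 45 passed in both genotypes, all with the same sign (19 higher, 26 lower). Over all genes, 2979 of the 13328 tested in both (22.4%) passed with the same sign. The 45 are 71.4% of the WT list and 70.3% of the KO list. Over all genes those lists held 3840 and 4246 genes. Zfp281 (log2FC 1.27 ± 0.04), Zfp945 (1.23 ± 0.10), Zfp429 (0.86 ± 0.09), Zfp395 (-1.26 ± 0.19) and Zfp503 (-1.20 ± 0.10) were again at the ends of the range. Zfp281 in KO cells went from 41.3 to 46.6 CPM to 101 to 115 CPM.

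**Figure D2:**
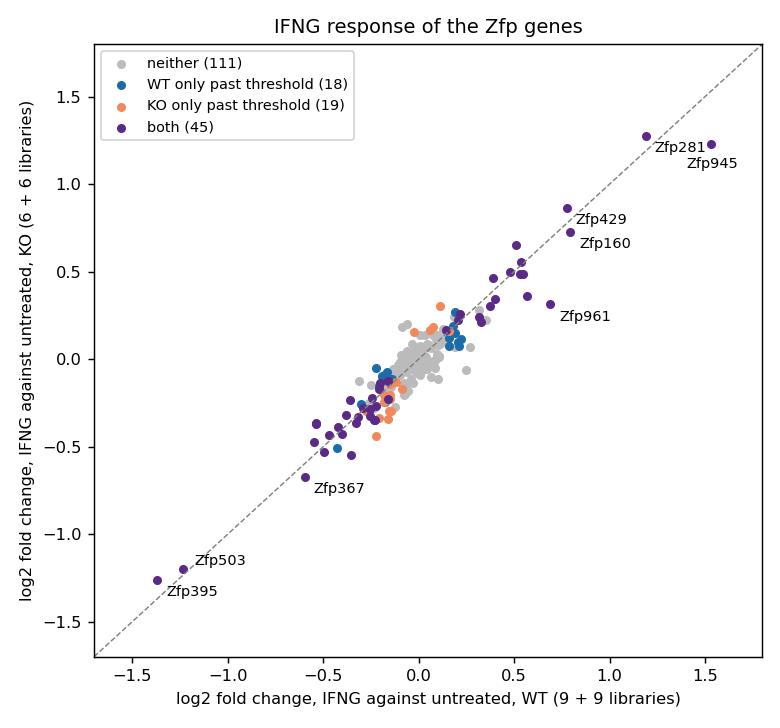
Each point is 1 of the 193 Zfp genes, with the log2 fold change after IFNG in pooled WT on the x axis and in pooled KO on the y axis, and colours give where the gene passed an adjusted p of 0.05. Points lie along the dashed line of equal values, with 45 genes past the threshold in both, and Zfp961 (0.69 in WT, 0.31 in KO) lies below it.

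The difference between genotypes was tested as an interaction in all 30 libraries. It was past the threshold for 1 of the 193 genes, against 1.02% of all genes (0.681% with a larger and 0.341% with a smaller value in KO), and 15 had an unadjusted p under 0.05. That gene was Zfp961, a KRAB-like gene in a cluster on chromosome 8. Untreated it was at 15.6, 18.3 and 21.1 CPM (lowest, median, highest) in WT and at 18.7, 19.4 and 23.8 CPM in KO, and after IFNG at 23.4, 30.4 and 33.2 CPM in WT and 21.6, 25.4 and 26.7 CPM in KO. The treated ranges of WT and KO overlapped, while the response was smaller in KO (0.31 ± 0.07 against 0.69 ± 0.07, interaction -0.37 ± 0.08, adjusted p = 0.00961). In single clones it was 0.65, 0.62 and 0.78 in WT1 to WT3, 0.22 in KO1 and 0.41 in KO2. Without KO1 the interaction was -0.27 with an adjusted p of 0.270, and without WT3 it was -0.33 with 0.117. It also missed the threshold when the first library of every clone was left out (adjusted p = 0.145) and when the second was (adjusted p = 0.241).

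When the response was allowed to differ among all 5 clones, 3 Zfp genes passed (background 3.68%), with 22 at an unadjusted p under 0.05. They were Zfp961 (adjusted p = 0.00879), Zfp710 (0.0161) and Zfp516 (0.0347), the last known as a partner of PRDM16 in brown fat. Of these, only Zfp961 passed without the first library of every clone, none passed without the second (7 Zfp genes at an unadjusted p under 0.05 in edgeR) and only Zfp710 passed without the third. Zfp710 fell by 0.34 to 0.36 on the log2 scale in WT1, KO1 and KO2 and by more in WT2 (log2FC -0.56) and WT3 (-0.67). Its untreated level was also lowest in WT1 (107 ± 1.47 CPM, against 146 ± 5.09 in WT2 and 160 ± 5.70 in WT3). Zfp516 rose in KO1 (log2FC 0.29 ± 0.07) and passed in no other clone (-0.06 to 0.03). In KO1, untreated libraries held 46.8 to 53.5 CPM and treated ones 57.5 to 66.1 CPM.

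Most Zfp genes differed between clones. Across the 5 untreated clones, 131 of the 193 genes (67.9%) passed the test of any difference, against a background of 73.2%. Across the 5 treated clones 120 passed (62.2%), against a background of 69.3%. Without the second library of every clone the treated count was 76, against 49.4% of all genes. Of the 193, 106 passed in both, against 8780 of the 13951 genes tested in both (62.9%). The 106 are 80.9% of the untreated list and 88.3% of the treated one. Over all genes those lists held 10591 and 9821 genes. The highest clone mean exceeded the lowest by 1.25-fold at the median, by over 1.5-fold for 35 genes and by over 2-fold for 3, Zfp704 (46.4-fold), Zfp618 (22.3-fold) and Zfp362 (2.61-fold). In the KRAB-like class 48 of 77 passed untreated, and in the rest 83 of 116.

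The WT clones alone already differed. WT1 against WT2 and WT3, untreated, gave 90 genes past the threshold, 29 higher and 61 lower, against a background of 52.6% (26.4% higher and 26.2% lower). The median log2FC of the 193 genes was -0.04, while that of all genes was 0.01. Zfp318 (0.85 ± 0.07), known from alternative splicing of IgD in B cells, Zfp395 (0.72 ± 0.06) and Zfp618 were higher in WT1, and Zfp704, Zfp935 (-0.67 ± 0.11) and Zfp709 (-0.60 ± 0.14) lower. Zfp935 shares its strand with several overlapping genes, and its value is uncertain for that reason. WT2 against WT3 gave 24 genes, 3 higher and 21 lower (background 17.2%, of which 9.02% higher and 8.19% lower). Without the first library of every clone it gave 11 (background 7.63%), and without the second 15 (background 8.99%).

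Pooled KO against pooled WT, untreated, compared 6 with 9 libraries and asks what differs beside Dicer1 in the edited clones. It gave 40 of the 193 genes, 13 higher and 27 lower, against a background of 26.6% (12.2% higher and 14.4% lower). The largest differences were in Zfp618, a partner of UHRF2, which reads hydroxymethylated DNA, and Zfp704, a relative of Zfp395. Untreated Zfp618 was at 13.3, 14.6 and 15 CPM in the WT1 libraries, 7.81, 8.05 and 9.49 in WT2 and 4.87, 5.10 and 4.78 in WT3. It was at 0.870, 0.632 and 0.424 CPM in KO1 and 0.937, 1.28 and 1.24 CPM in KO2. Each KO library lay below every WT library, and the WT clones also stood apart from each other (log2FC of KO against WT -3.35 ± 0.35, adjusted p = 5.78e-06). Zfp704 was at 1.59, 2.24 and 1.43 CPM in WT1, 9.74, 9.65 and 8.11 in WT2 and 15.5, 14.9 and 14.6 in WT3. It was at 0.539, 0.316 and 0.116 CPM in KO1 and 1.25, 1.57 and 1.38 CPM in KO2. The ranges of KO2 and WT1 overlapped, so Zfp704 was also low in a WT clone (log2FC of KO against WT -3.28 ± 0.65, adjusted p = 0.0014, and of WT1 against the other WT clones -2.78 ± 0.25, adjusted p = 4.78e-07). Both genes are among the 193 only through the clones in which they are expressed. After IFNG both kept this order of clones, with log2FC of KO against WT of -3.34 ± 0.42 and -3.01 ± 0.62.

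**Figure D3:**
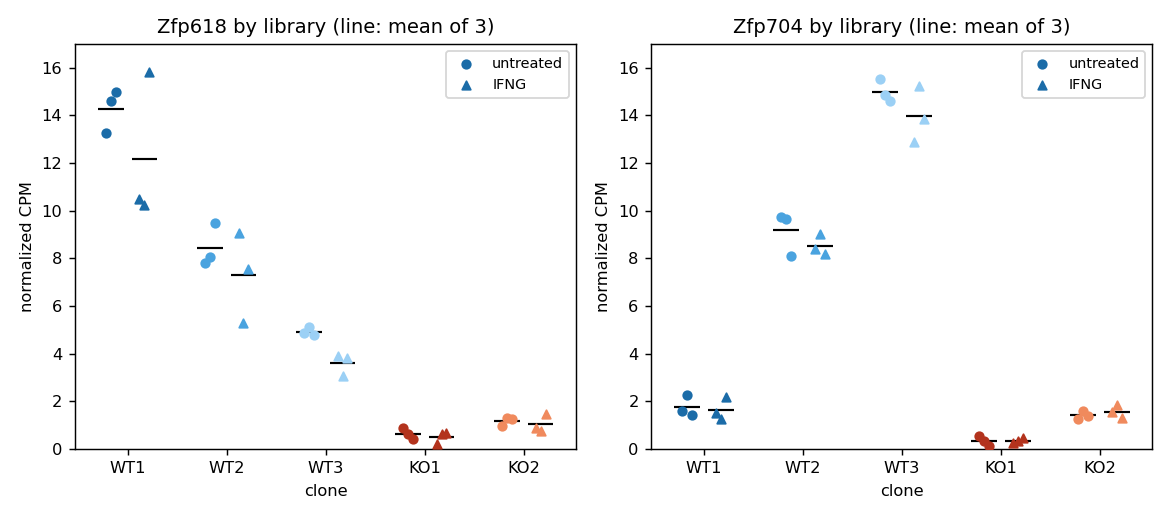
Normalized CPM on the y axis for each library, by clone on the x axis, with circles for untreated and triangles for IFNG-treated libraries and a line at the mean of each 3. For Zfp618 the KO libraries stay below 1.5 CPM and WT1 is highest, and for Zfp704 WT1 lies near KO2 (1.75 and 1.40 CPM untreated) while WT3 is highest (15 CPM).

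Zfp362 was lower in KO1 (log2FC -1.17 ± 0.18) than in KO2 (-0.44 ± 0.17, adjusted p = 0.116), at 12.98 to 16.03 CPM and 23.6 to 24.9 CPM, with WT1 at 21.3 to 27.2 CPM and WT2 and WT3 at 34.1 to 40.1 CPM. Only KO1 lay below all WT libraries. On the higher side, Zfp414 was at 24.4 to 27.7 CPM in KO and 15.7 to 23.7 CPM in WT (log2FC 0.46 ± 0.10, adjusted p = 0.0025), with WT1 at the top of the WT range. Zfp120 (0.36 ± 0.07), Zfp948 (0.32 ± 0.09), Zfp276 (0.28 ± 0.07), Zfp959 (0.27 ± 0.08) and Zfp971 (0.27 ± 0.09) followed. Zfp948 was higher in KO1 (18.6 to 20.9 CPM, against 12.4 to 14.5 in WT) and within the WT range in KO2 (13.7 to 14.4 CPM). Zfp959 showed the reverse, at 9.88 to 10.9 CPM in KO2 and 7.71 to 8.86 CPM in KO1, against 6.85 to 8.34 CPM in WT.

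Side by side, KO1 against WT gave 44 genes untreated, 10 higher and 34 lower (background 25.7%, of which 11.1% higher and 14.6% lower), and KO2 against WT gave 20, 7 higher and 13 lower (background 11.6%, of which 4.89% higher and 6.7% lower). Both use the same WT libraries. Leaving out 1 library of every clone gave 19 to 24 genes for KO1 (background 10.8% to 13%) and 7 to 10 for KO2 (background 2.87% to 3.98%). Leaving out WT1 gave 88 for KO1 (background 51%) and 64 for KO2 (background 40.6%). Zfp346, a double-stranded RNA binding protein, was higher in KO1 (0.40 ± 0.10) and not in KO2 (0.03 ± 0.10). In treated cells the pooled comparison gave 33 genes, 9 higher and 24 lower (background 23.9%, of which 10.9% higher and 13% lower). KO1 gave 38, 6 higher and 32 lower (background 20.9%, of which 8.76% higher and 12.1% lower). KO2 gave 15, 6 higher and 9 lower (background 1411 of 14042 genes or 10%, of which 3.92% higher and 6.12% lower). Leaving out 1 library of every clone or WT1 moved the treated counts of KO1 and KO2 by over 1.5 times. For KO1 they went to 12 to 15 and 79 (background 6.69% to 10.3% and 46.5%). For KO2 they went to 3 to 7 and 51 (background 1.45% to 3.31% and 37%). The pooled treated comparison gave 71 without WT1 (background 44.8%) and 15 without KO1 (background 10%). The untreated and treated pooled comparisons use different libraries of the same clones. They shared 24 of the 193 genes, 60% of the untreated list and 72.7% of the treated one, all with the same sign, 18 lower and 6 higher. The same overlap was not counted over all genes, so these shares cannot be called particular to the Zfp genes. Of the 40 untreated genes, 36 had both KO clone means outside the 3 WT clone means. Over all genes, 3163 of the 3689 that passed did so. As a base of genes tested, this is 36 of the 193 Zfp genes and 22.8% of all 13886. With counts summed per clone (3 WT against 2 KO clones), none of the 193 genes passed in edgeR in either treatment, with 18 untreated and 17 treated at an unadjusted p under 0.05, and Zfp618 had the smallest adjusted p, 0.242 untreated. Without WT1 the untreated comparison gave 78 genes (40.4%, against 47.8% of all genes in that fit), and without KO1 it gave 20 (10.4%, against 11.6%).

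Of the 27 Zfp genes lower in untreated pooled KO, 11 lie on chromosome 6, which carries 13 of the 193. The other genes of that chromosome were also lower in KO cells: 51.8% of the 677 tested passed as lower and 3.69% as higher, with a median log2FC of -0.27. The median of the 13 Zfp genes was -0.47. Zfp777 was at 12.2 to 16.8 CPM in KO and 21.3 to 25.8 CPM in WT (log2FC -0.67 ± 0.07, adjusted p = 8.37e-06). Zfp239 was at 7.36 to 10.2 CPM in KO and 10.6 to 14.9 CPM in WT (-0.66 ± 0.09, adjusted p = 6.89e-05). Zfp248 (-0.53 ± 0.07), Zfp212 (-0.48 ± 0.05), Zfp422 (-0.47 ± 0.07), Zfp746 (-0.47 ± 0.05), Zfp282 (-0.47 ± 0.09) and Zfp637 (-0.45 ± 0.06) were close to each other in size. Smaller values were those of Zfp398 (-0.35 ± 0.06), Zfp384 (-0.25 ± 0.04) and Zfp638 (-0.15 ± 0.04), an RNA-binding protein known from silencing of unintegrated retroviral DNA. The 2 that did not pass were Zfp467 (-0.13 in KO1 and -0.14 in KO2) and Zfp800 (-0.04 and 0.07).

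**Figure D4:**
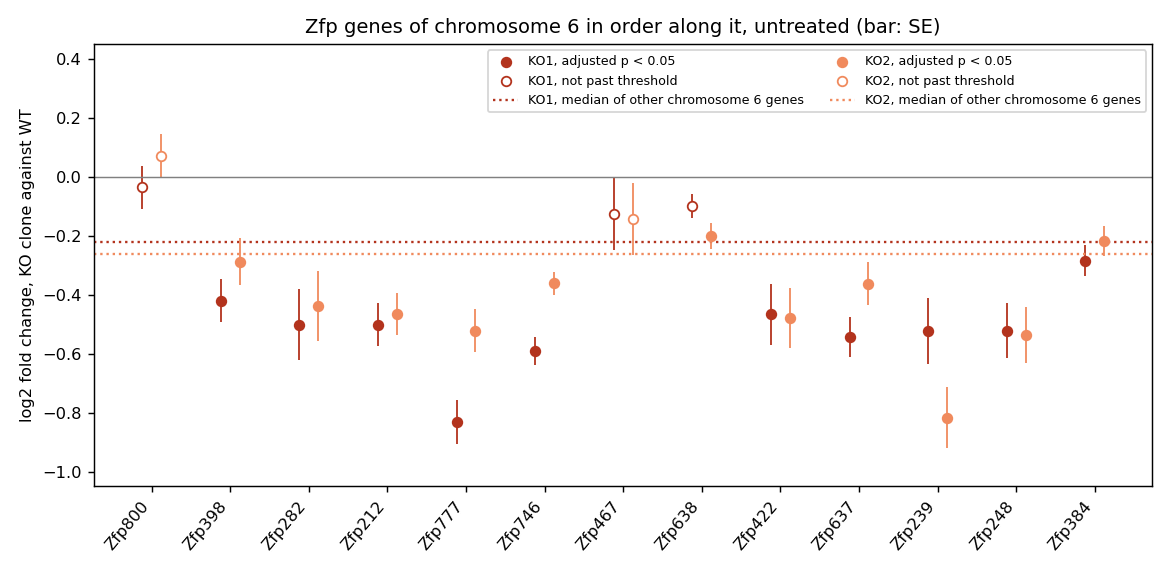
The y axis gives the log2 fold change of each KO clone against WT, untreated, with its SE, for the 13 Zfp genes of chromosome 6 in order along it. Filled points passed an adjusted p of 0.05, and dotted lines give the median log2 difference of the other 593 genes of that chromosome (-0.22 in KO1 and -0.26 in KO2). In KO1 10 genes and in KO2 11 genes are filled, all of them negative.

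Both chromosome 6 clusters took part. In the run of 6 genes from Zfp398 to Zfp467 (chr6:47835661-48445825), 5 were lower in pooled KO, and in that from Zfp637 to Zfp248 (chr6:117841180-118455528) all 3 were lower. As median log2 differences from the WT clones in untreated cells, the first stood at -0.47 in KO1 and -0.39 in KO2 and the other genes within 5 Mb at -0.23 and -0.26. The second stood at -0.49 in KO1 and -0.50 in KO2 and its neighbours at -0.25 and -0.26. In treated cells the first stood at -0.55 and -0.48 (neighbours -0.27 and -0.28) and the second at -0.44 and -0.30 (neighbours -0.31 and -0.26), so that the second lay close to its neighbours in treated KO2. The chromosome-wide difference moved with these results, and its part in them was not tested.

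Chromosomes 12 and 17 gave 2 other patterns. On chromosome 12, where the deleted element lies, the 4 Zfp genes were all lower in KO1, with a median log2FC of -0.45, and 57.9% of the other genes there were lower too, with a median of -0.37. In KO2 the medians were 0.02 for the Zfp genes and 0.00 (0.000637) for the others. Zfp839 was at 6.97 to 8.33 CPM in KO1, 10.2 to 11.8 CPM in KO2 and 10.8 to 14.7 CPM in WT. On chromosome 17 the other genes were higher in KO (39.6% of 669 passed as higher, with a median log2FC of 0.20) and in WT1 against WT2 and WT3 (60.6% of 672, with a median of 0.27). The 27 Zfp genes there had medians of 0.09 and 0.08, with 4 higher and none lower in KO and 8 higher and 5 lower in WT1, where 8.48% of the other genes were lower. In untreated WT1, the cluster of 15 from Zfp160 to Zfp945 had a median log2 difference of 0.02 where its neighbours had 0.25, and that of 8 from Zfp871 to Zfp414 had 0.03 where they had 0.31. In treated WT1 these were 0.07 and 0.25 for the first and 0.13 and 0.30 for the second. Zfp414 is the last of those 8.

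**Figure D5:**
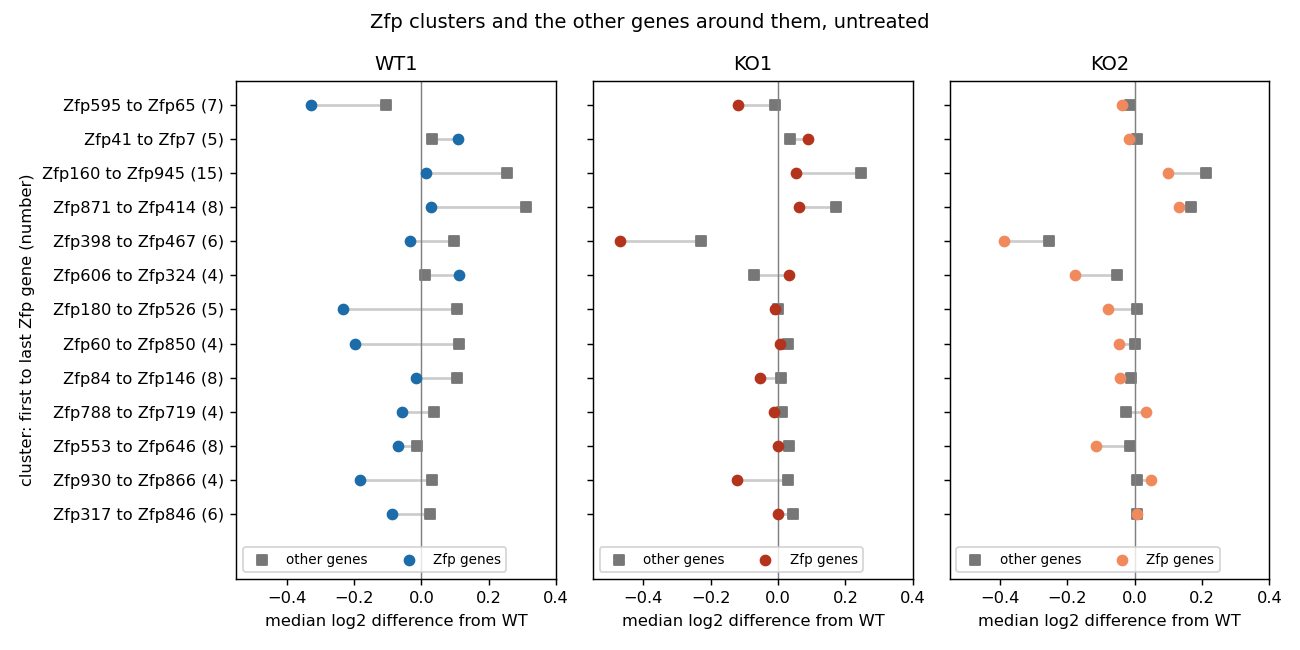
For the 13 clusters with at least 4 Zfp genes, named by their first and last gene with the number in parentheses, the x axis gives the median log2 difference of untreated WT1 (from the other WT clones), KO1 and KO2 (from the 3 WT clones). Coloured circles are the Zfp genes and grey squares the other genes within 5 Mb. The run from Zfp398 to Zfp467 lies left of its neighbours in KO1 (-0.47 and -0.23), and the run from Zfp160 to Zfp945 lies near 0 in WT1 where its neighbours are at 0.25.

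In untreated cells, several clusters had negative medians in WT1 relative to the other WT clones. The 7 KRAB-like genes from Zfp595 to Zfp65 on chromosome 13 stood at a median log2 difference of -0.33 (neighbours -0.11), with 4 of 7 past the threshold as lower, against 26.2% of all genes. The 5 genes from Zfp180 to Zfp526 stood at -0.23 (neighbours 0.10) and the 4 from Zfp60 to Zfp850 at -0.20 (neighbours 0.11), with 3 and 2 that passed as lower and none as higher. In treated cells the 3 medians were nearer 0, at -0.09 (neighbours 0.04), -0.17 (neighbours 0.11) and -0.05 (neighbours 0.11). No test of a cluster against its neighbours was made.

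Of the corepressor list, 9 of 33 genes passed in untreated KO against WT, 4 higher and 5 lower (27.3%, against 26.6% of all genes, 12.2% higher and 14.4% lower), including Rbbp7 (log2FC 0.60), Atf7ip (-0.47), Smarcad1 (-0.35) and Setdb1 (0.17). Chd3, a helicase of the nucleosome remodelling and deacetylase complex, was lower in KO1 (log2FC -3.64) and did not pass in KO2 (-0.02). None of the 7 members known from retroelement silencing or imprinting passed in untreated pooled KO against WT. Some did in other edgeR comparisons with WT, each as the only one of the 7 to pass there. Zfp445 was lower in treated pooled KO (log2FC -0.20 ± 0.06, adjusted p = 0.0199), where 23.9% of all genes passed. It passed in neither treated KO clone alone (adjusted p = 0.123 in KO1 and 0.0892 in KO2). Zfp932 was higher in untreated KO1 (0.37 ± 0.12, adjusted p = 0.0391), where 25.7% of all genes passed. Zfp738 was lower in treated KO1 (-0.39 ± 0.12, adjusted p = 0.0384), where 20.9% of all genes passed. In untreated KO1 Zfp738 did not pass (adjusted p = 0.0608).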

How the data were processed

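Polyadenylated RNA of J774A.1 clones was sequenced in 30 libraries, 3 for each of 5 clones and 2 treatments. After trimming (BBDuk) and alignment to mm10 (HISAT2 2.1.0), the authors kept uniquely aligned fragments and counted them with featureCounts 1.6.2 in reversely stranded mode with overlapping genes each credited. The deposited values are raw counts per gene, with an annotation that the file header gives as Gencode vM18 and the methods as RefSeq. Columns for WT2 and WT3 carry other names in the table used and were assigned through deposited tables named for these clones. Columns carry no replicate numbers. The authors' tables of comparisons were not used.

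The tests were those of edgeR 4.0.16 under R 4.3.3 (glmQLFit and glmQLFTest after filterByExpr and TMM scaling), adjusted by the Benjamini-Hochberg method over all genes tested, with a threshold of 0.05. Pooled comparisons had no clone term. The SE is log2FC over the root of the F statistic, without sign. Scripts were tested on simulated data. The alternatives were DESeq2 1.42.0, RLE factors, 2 filters, a clone block, leaving out libraries or clones and sums per clone. Gene positions came from GENCODE vM21 (52480 of 54146 identifiers matched) and promoter windows from RefSeq. KRAB-like stretches and fingers were read from the longest open reading frame of each gene's transcripts, so a KRAB-like stretch can be missed. Shifts are medians of log2(CPM + 0.5) over all genes that averaged 1 CPM or more.

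The Zfp genes and the gene lists were chosen with earlier results of these data known. Named were the 8 genes with the highest CPM per kb, the 8 largest changes each way after IFNG in pooled WT with the same sign in the 3 WT clones, the 6 largest each way for untreated KO and WT where each KO clone mean lay beyond the WT clone means, the 3 largest each way for KO1, KO2 and WT1, interaction calls, and genes under 0.5 CPM in a clone and at least 5 CPM in another, which gave Zfp704. Chromosome 6 genes, those past the threshold in all clones and those of listed classes were named in addition after their values were seen. Depth per library bounds precision, which the SE of each log2FC gives.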

Additional observations from a re-analysis of the deposited data

Results flagged for a closer look

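In 160 groups of 6 or 9 libraries, the named genes gave 3 with 1 library far from the rest by Dixon's test. All 3 were in IFNG-treated KO cells. In a single uniform sample chance gives about 1 in 20. Each group here pools clones that can differ, which widens its range, so the count cannot be set against that rate. Zfp160 was at 23.1 CPM in 1 KO1 library and at 25.7 to 27.03 CPM in the other 5. Zfp276 was at 5.84 CPM in 1 KO2 library and at 8.08 to 9.42 CPM in the others. Zfp516 was at 66.1 CPM in 1 KO1 library, against 55.7 to 58.8 CPM.

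The IFNG response of Zfp961 differed between genotypes (adjusted p = 0.00961) and among clones (adjusted p = 0.00879). The responses of Zfp710 (adjusted p = 0.0161) and Zfp516 (adjusted p = 0.0347) differed among clones.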

How the results depend on the processing

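No paired analysis was possible because the table's columns carry no replicate numbers, so the planned replicate block was not run. Of 235 counts under alternatives, 196 stayed within 1.5 times the main count. Counts in this section stand without the share of all genes, so they do not show how Zfp genes compare with others. Of 909 values of the named genes, 853 kept their direction and side of the threshold, 56 fell short of it and none turned sign. These genes were named for passing the threshold in the same data, most with large changes. Their agreement was therefore largely set in advance. For IFNG in pooled WT, a clone block gave 104 Zfp genes (38 higher, 66 lower) in place of 63. DESeq2 gave 42 in WT2 in place of 66 and 15 for WT2 against WT3 in place of 24. Without a filter on low counts the genotype interaction gave 2 genes and the clone interaction 5. In that unfiltered edgeR clone interaction Zfp945 had the smallest adjusted p (5.06e-05), while in the main fit it did not pass (0.394). The genotype interaction gave 4 genes without WT1, 0 without WT3, 0 without KO1 and 2 without KO2, with 9 and 12 genes at an unadjusted p under 0.05 where it gave 0. Sums per clone gave 0 for KO against WT untreated and 0 treated in edgeR (18 and 17 at an unadjusted p under 0.05), and DESeq2 was not run on them. The 12 genes named for KO against WT missed the threshold there, at adjusted p of 0.242 to 0.533.

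Without WT1, KO against WT gave 78 genes untreated and 71 treated, KO1 gave 88 and 79, and KO2 gave 64 and 51. Without KO1 the pooled comparison gave 20 untreated and 15 treated. Leaving out 1 library at a time gave 56 to 65 genes for IFNG in pooled WT, 58 to 66 in pooled KO, 34 to 49 in WT1, 47 to 58 in WT2, 51 to 68 in WT3, 44 to 53 in KO1, 38 to 56 in KO2, 30 to 46 for KO against WT untreated and 27 to 39 treated. Leaving out 1 library of every clone at a time gave 19 to 24 for KO1 and 7 to 10 for KO2 against WT untreated, 12 to 15 and 3 to 7 treated, 70 to 73 for WT1, 11 to 18 for WT2 against WT3, 108 to 117 across 5 untreated clones, 76 to 105 across 5 treated ones, 0 to 1 for the genotype interaction and 0 to 1 for the clone interaction (where they gave 0 in edgeR, 18 and 6 genes had an unadjusted p under 0.05 for the first and 7 for the second).

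A minimum of 1 CPM gave 272 genes and of 10 CPM 139. Gaps of at most 250 kb gave 15 clusters and of 2 Mb 20. The 3 libraries per clone and treatment limit what could be detected in single clones.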
